A study of Mus musculus with 105 samples.

Results

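Msn, Prps2, Ap1s2 and AU015836 are 4 X-linked mouse genes whose Cast allele fell strongly against the B6 allele when the Cast X chromosome was the one inactivated, while their B6 allele fell little or not at all against the Cast allele in the mirror-image line. They were named for this contrast between the deletion lines, so the values of those lines are given here as a description and carry no test. The values of the parental line were also known when the genes were picked, so its p-values describe the fit across all genes and are not independent evidence for these 4. The 4 genes are 4 of 52108 genes in the allele-resolved count tables, and 4 of 298 X-linked genes outside the deleted region with at least 50 allele-specific counts in each line on each day. The study followed the onset of random X-chromosome inactivation (XCI) in female mouse embryonic stem cells that were differentiated by withdrawal of 2i and Lif, at days 0 to 4. Bulk RNA was sequenced from 3 lines with 3 replicates per day, 45 libraries in all, and single cells of the parental line were sequenced from 1 culture per day. The parental line TX1072 is an F1 hybrid between C57BL/6 (B6) and CAST/EiJ (Cast), so reads over strain-specific single-nucleotide polymorphisms (SNPs) can be assigned to an allele. A promoter that responds to doxycycline precedes Xist on its B6 X chromosome, and the rtTA activator sits at Rosa26, which the derived lines share. TXΔXicB6 and TXΔXicCast are 1 clone each, made from TX1072 by deleting the X-inactivation centre (Xic), with Xist inside it, from 1 of the X chromosomes, B6 or Cast by name. In TXΔXicB6 the inactive X (Xi) is therefore always Cast and the active X (Xa) is B6, and in TXΔXicCast it is the other way round. Genes between positions 103182257 and 103955698 of the X chromosome (mm10), the span covered by either deletion, were left out of comparisons across the chromosome.

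In female mammals Xist RNA spreads from its own chromosome and silences most genes of that X chromosome, which equalises X-linked dosage with males. In differentiating embryonic stem cells the choice of chromosome is normally random, so a population keeps both alleles at similar totals even while every cell silences one of them. A deletion of the Xic fixes the choice, and the ratio of Xi to Xa transcripts (Xi:Xa) of a gene then follows its silencing in the whole population. Msn encodes moesin, a member of the ezrin-radixin-moesin family that ties actin filaments to the plasma membrane. Prps2 encodes a phosphoribosyl pyrophosphate synthetase, which makes the sugar donor for purine, pyrimidine and NAD synthesis. Ap1s2 encodes a sigma subunit of the AP-1 adaptor complex, which sorts cargo into clathrin-coated vesicles at the trans-Golgi network and endosomes. AU015836 is annotated as protein coding and is named here by its symbol only.

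The annotation of mm10 places AU015836 (ENSMUSG00000081044) on the plus strand of the X chromosome at 93968659 to 93975470, Msn (ENSMUSG00000031207) on the plus strand at 96096042 to 96168552, Ap1s2 (ENSMUSG00000031367) on the plus strand at 163909017 to 163933666, and Prps2 (ENSMUSG00000025742) on the minus strand at 167346322 to 167382749. AU015836 and Msn lie 9.48 Mb and 7.29 Mb from Xist, and Ap1s2 and Prps2 lie 60.4 Mb and 63.9 Mb from it, so the genes form a near and a far pair on the same chromosome. The exons hold 12 B6/Cast SNPs in AU015836, 25 in Msn, 19 in Ap1s2 and 11 in Prps2, and every allele-specific value rests on reads over these sites. Of these SNPs 3 lie in coding sequence in AU015836, Msn and Prps2 each, while all of those of Ap1s2 lie in untranslated or non-coding exons. In the promoter window, from 250 bases before to 50 bases after the annotated start, only Ap1s2 held a SNP between the strains (1 SNP). Shared reads are possible where other genes overlap: a scaRNA, Gm24718, lies within Msn on the opposite strand, and an antisense transcript, Gm15239, and a snoRNA, Gm26368, overlap Prps2. To show what tells the alleles apart, the following windows of 29 bases give the B6 reference sequence (mm10) of the transcript's strand, 5′ to 3′, around 1 exonic SNP per gene, with the SNP in capitals and the change written as B6 base, position from the 5′ end of the window, Cast base.
Msn, position 96152700, exon 4 of 13, coding, plus strand, C15G: cctgaaactgcggtCctgttggcttctta
Prps2, position 167374153, exon 2 of 7, coding, minus strand, T15C: gtgagaggggaagaTgtctacatcatcca
Ap1s2, position 163927648, exon 5 of 5, untranslated, plus strand, G15A: gctagttttaacttGttgggaggaagcct
AU015836, position 93974070, exon 3 of 3, coding, plus strand, C15T: gaaaatggtgaacaCgttttatagaactg

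Each bulk library held between 16906263 and 57920260 counts in genes, of which 17.9 to 20.3% were allele-specific in TX1072. In the deletion lines the allele-specific share was 29.9 to 34.9% in 26 of 30 libraries and lower in the other 4, namely 5.21% in TXΔXicB6 day 0 replicate 1, 20.3% and 9.57% in TXΔXicB6 day 2 replicates 1 and 2, and 22.9% in TXΔXicCast day 3 replicate 3. Even the shallowest of these libraries, TXΔXicB6 day 0 replicate 1, gave allele-specific counts of 360 for Msn, 48 for Prps2, 44 for Ap1s2 and 59 for AU015836. The labels record that the day 0 RNA of TXΔXicCast was degraded and was fragmented differently. Changes from day 0 in that line also span this difference, whose part was not tested. The deletion lines were prepared with another library kit (KAPA RiboErase) than TX1072 (TruSeq total RNA). Levels are therefore mainly compared within a line, and those set side by side between lines are descriptions without a test. Xist followed the deletions. At day 4 the 3 TXΔXicB6 libraries together held 5 B6 and 23382 Cast counts of Xist, and the 3 TXΔXicCast libraries held 14869 B6 and 12 Cast counts. The total Xist counts, not scaled to depth, were 52371 in TXΔXicB6 and 35079 in TXΔXicCast on day 4, and 57502 and 30383 on day 3. The paper describes the dynamics of Xist in the lines as comparable. The part of this difference in the values below was not tested.

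All 4 genes were already expressed more from the Cast allele before differentiation. In the 3 TX1072 libraries of day 0 the Cast allele held 60.0, 56.2 and 58.4% of the allele-specific counts of Msn and 72.0, 65.7 and 65.3% of those of Prps2. It held 79.7, 78.8 and 78.7% for Ap1s2 and 84.0, 79.1 and 76.2% for AU015836, so that roughly 4 Cast reads stood against each B6 read in these 2 genes. Every library of every gene lay above an equal share. On the log2 scale the Cast:B6 ratio was 0.48 (SE 0.06, adjusted p = 6.76e-10) for Msn, 1.12 (SE 0.09, adjusted p = 4.12e-16) for Prps2, 1.93 (SE 0.07, adjusted p = 1.07e-31) for Ap1s2 and 2.04 (SE 0.12, adjusted p = 2.34e-22) for AU015836 (n = 3, edgeR quasi-likelihood test, Benjamini-Hochberg over 13510 genes). Cast was thus higher in 4 of 4 members, where 18.5% of all genes tested were higher on Cast, and the median over the 464 X-linked genes tested was 0.00. In the deletion lines, which are clones of TX1072, Cast held 81.8, 80.8 and 78.3% of Ap1s2 counts on day 0 in TXΔXicB6 and 71.0, 83.4 and 80.8% in TXΔXicCast. TXΔXicCast replicate 1 was the lowest of these for Ap1s2. The day 0 values of these lines enter the contrast for which the members were named, so they are not separate evidence for the Cast excess.

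Msn showed the widest gap between the lines of the 4 genes on day 4, 3.01 (SE 0.16) on the log2 scale. In TXΔXicB6, where Cast is inactivated, the Cast allele held 57.2, 60.6 and 58.0% of the allele-specific counts of Msn on day 0 and 49.7, 50.8 and 49.9% on day 1. It held 35.5, 38.6 and 34.3% on day 2, 25.9, 23.1 and 22.4% on day 3 and 24.2, 19.8 and 18.1% on day 4. The Cast share thus fell on every day up to day 3, and no library of days 1 to 4 overlapped with day 0. In TXΔXicCast, where B6 is inactivated, the Cast allele held 58.6, 60.6 and 60.0% on day 0, 50.8, 51.1 and 51.6% on day 1 and 62.1, 60.9 and 64.3% on day 2. It held 67.7, 67.7 and 67.9% on day 3 and 68.2, 67.8 and 67.1% on day 4. The share dropped to near parity on day 1 in both lines and from day 2 the TXΔXicCast libraries all lay above the TXΔXicB6 libraries. Against day 0 of the same line, log2 Xi:Xa of Msn changed by −2.45 (SE 0.17) in TXΔXicB6 and by −0.50 (SE 0.04) in TXΔXicCast on day 4, a fall in both lines, though centred on the X-wide median of each library the value in TXΔXicCast was 0.13. The levels of the single alleles, in allele-specific CPM (counts of an allele scaled to the autosomal allele-specific counts of its library), show which allele moved. In TXΔXicB6 the Cast allele went from 178 ± 18.1 (SD, n = 3) on day 0 to 73.6 ± 19.1 on day 4, 41.3% of its start, while the B6 allele went from 125 ± 5.96 to 278 ± 21.5. In TXΔXicCast the B6 allele went from 114 ± 8.56 to 147 ± 18.2 and the Cast allele from 169 ± 16.6 to 309 ± 32.1. The Xi allele was therefore lower on day 4 than on day 0 in TXΔXicB6 and not in TXΔXicCast, and the Xa allele was higher in both lines. In bulk RNA, fewer cells transcribing an allele and less RNA per cell cannot be told apart.

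Prps2 moved on both alleles, and it did so already on day 1, before the lines separated. In TXΔXicB6, where Cast is inactivated, the Cast allele held 75.0, 69.9 and 67.8% of the allele-specific counts of Prps2 on day 0 and 53.8, 55.9 and 53.9% on day 1. It held 40.0, 44.9 and 39.7% on day 2, 30.1, 30.8 and 25.2% on day 3 and 27.1, 23.7 and 24.6% on day 4. All libraries of days 1 to 4 lay below all libraries of day 0. In TXΔXicCast, where B6 is inactivated, the Cast allele held 72.8, 75.3 and 72.3% on day 0, 53.2, 57.9 and 55.4% on day 1 and 52.9, 53.2 and 52.5% on day 2. It held 60.3, 59.1 and 57.6% on day 3 and 62.1, 62.6 and 62.2% on day 4. Here the Cast share also fell from day 0, reached its lowest mean on day 2 and was higher again on day 4, without returning to the day 0 range. As a result log2 Xi:Xa changed by −2.83 (SE 0.15) in TXΔXicB6, while in TXΔXicCast it changed by 0.74 (SE 0.07) and thus turned towards the B6 allele of the Xi. Both alleles rose in level up to day 2. The Cast allele of TXΔXicB6 went from 30.6 ± 2.89 (SD, n = 3) allele-specific CPM on day 0 to 53.6 ± 6.54 on day 2 and back to 19.7 ± 3.08 on day 4, whereas its B6 allele went from 12.8 ± 3.34 to 76.5 ± 17.3 and 58.3 ± 4.15. In TXΔXicCast the B6 allele went from 9.36 ± 0.424 on day 0 to 77.5 ± 10.6 on day 2 and 34.7 ± 1.65 on day 4. That is 371% of its start on the Xi, against 221% for the Cast allele of the Xa. Between day 2 and day 4 the Xi allele of Prps2 went down in both lines, with no overlap between the libraries of the 2 days. So did the Cast allele on the Xa of TXΔXicCast, from 86.9 ± 11.2 to 57.4 ± 3.33, while the libraries of the B6 allele on the Xa of TXΔXicB6 overlapped.

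After a peak on day 1, Ap1s2 dropped on both alleles, and the Cast allele dropped further. In TXΔXicB6, where Cast is inactivated, the Cast allele held 81.8, 80.8 and 78.3% of the allele-specific counts of Ap1s2 on day 0 and 78.5, 78.7 and 74.4% on day 1. It held 69.3, 67.3 and 62.4% on day 2, 45.1, 52.5 and 51.0% on day 3 and 41.9, 27.4 and 27.1% on day 4. Days 0 and 1 overlapped, day 3 lay near parity and all 3 libraries of day 4 lay below an equal share. In TXΔXicCast, where B6 is inactivated, the Cast allele held 71.0, 83.4 and 80.8% on day 0, 76.4, 77.5 and 77.1% on day 1 and 76.4, 76.4 and 71.2% on day 2. It held 69.0, 73.8 and 58.4% on day 3 and 70.7, 59.9 and 71.9% on day 4. The shares scattered more than for the other genes, and with replicate 1 the range of day 0 overlapped with each later day. Log2 Xi:Xa changed by −3.07 (SE 0.32) on day 4 in TXΔXicB6 and by 0.83 (SE 0.40) in TXΔXicCast. In TXΔXicB6 the Cast allele went from 64.0 ± 37.9 (SD, n = 3) allele-specific CPM on day 0 to 165 ± 14 on day 1 and 7.16 ± 2.85 on day 4, 11.2% of its start. The B6 allele of the same line went from 16.4 ± 11.4 to 49.0 ± 10.4 and 14.8 ± 3.10, 89.8% of its start with all libraries and 143% without day 0 replicate 3, its highest. In TXΔXicCast the B6 allele on the Xi kept 87.8% of its day 0 level on day 4, and the Cast allele on the Xa kept 43.9%. Without day 0 replicate 2, the highest of that group, these values were 111% and 69.2%, so how far the Cast allele fell in TXΔXicCast depended on that library. In the means the Cast allele kept a smaller part of its day 0 level than the B6 allele in either line, with or without these libraries.

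AU015836 had the smallest gap between the lines on day 4, 1.65 (SE 0.12) on the log2 scale. In TXΔXicB6, where Cast is inactivated, the Cast allele held 86.4, 80.1 and 80.8% of the allele-specific counts of AU015836 on day 0 and 64.6, 66.0 and 67.5% on day 1. It held 58.0, 57.5 and 51.9% on day 2, 54.2, 52.8 and 50.1% on day 3 and 46.3, 45.4 and 49.1% on day 4. The largest single step of the Cast share was from day 0 to day 1, and the libraries of day 4 lay just under an equal share. In TXΔXicCast, where B6 is inactivated, the Cast allele held 80.4, 84.7 and 83.9% on day 0, 67.1, 69.7 and 65.6% on day 1 and 70.5, 68.5 and 69.2% on day 2. It held 73.0, 67.9 and 75.8% on day 3 and 72.3, 72.3 and 76.2% on day 4. The same step was seen here on day 1, after which the share rose again without reaching the day 0 range. Log2 Xi:Xa changed by −2.37 (SE 0.18) in TXΔXicB6 and by 0.80 (SE 0.17) in TXΔXicCast on day 4. In TXΔXicB6 the Cast allele went from 36.8 ± 3.09 (SD, n = 3) allele-specific CPM on day 0 to 66.7 ± 6.48 on day 1 and 22.5 ± 3.50 on day 4, and the B6 allele from 7.83 ± 1.60 to 34.5 ± 5.59 and 25.7 ± 5.72. In TXΔXicCast the B6 allele went from 7.17 ± 0.699 to 36.7 ± 7.83 and 24.0 ± 2.95. Relative to day 0 the B6 allele stood at 328% as the Xa allele of TXΔXicB6 and at 334% as the Xi allele of TXΔXicCast, and the day 4 levels of the 2 lines differed by less than the spread between replicates. Between day 1 and day 4 the B6 allele went down in both lines, on the Xa of TXΔXicB6 as on the Xi of TXΔXicCast, with no overlap between the libraries of these days in either.

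**Figure D1:**
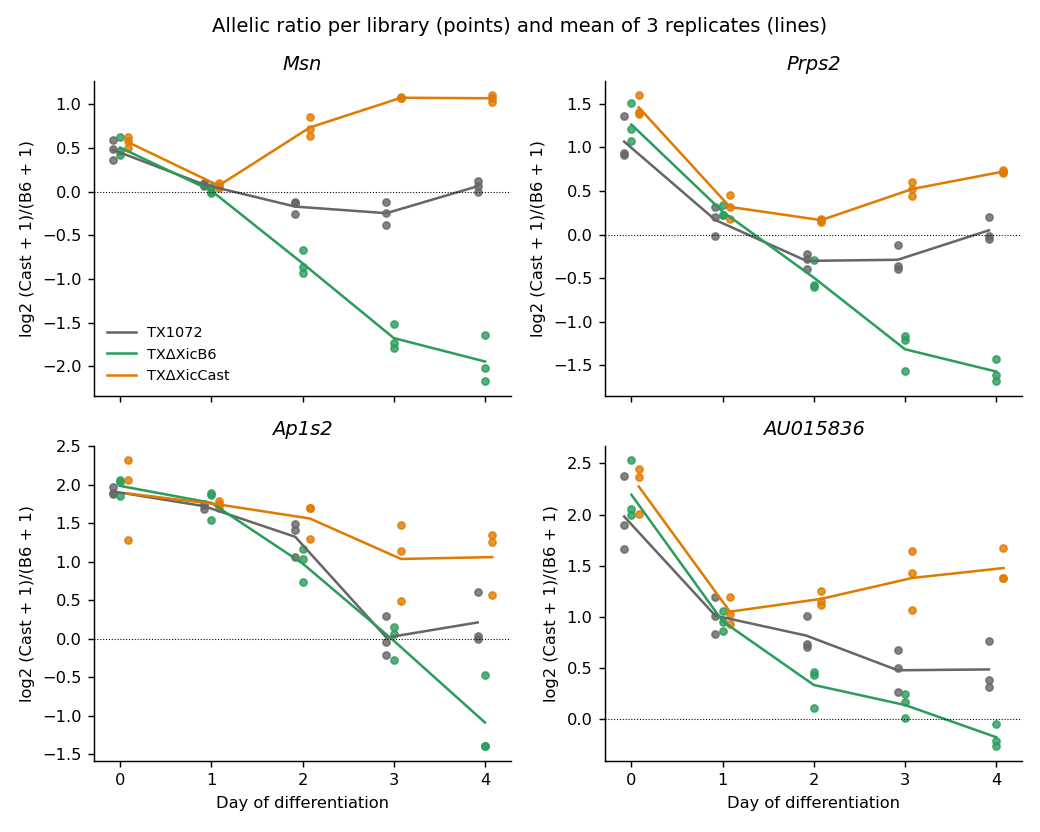
Log2 Cast:B6 ratio (1 added to each count, y axis) of Msn, Prps2, Ap1s2 and AU015836 against the day of differentiation (x axis) in TX1072, TXΔXicB6 and TXΔXicCast, with points for libraries and lines for the mean of 3 replicates. All 3 lines start above 0. TXΔXicB6 and TXΔXicCast overlap with each other on day 0 and on day 1, although TXΔXicCast lies above TX1072 for Prps2 on day 0 (by 0.39) and TXΔXicB6 just below it for Msn on day 1 (by −0.07), and they are apart from day 2, with a gap of 3.01 for Msn on day 4.

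**Figure D2:**
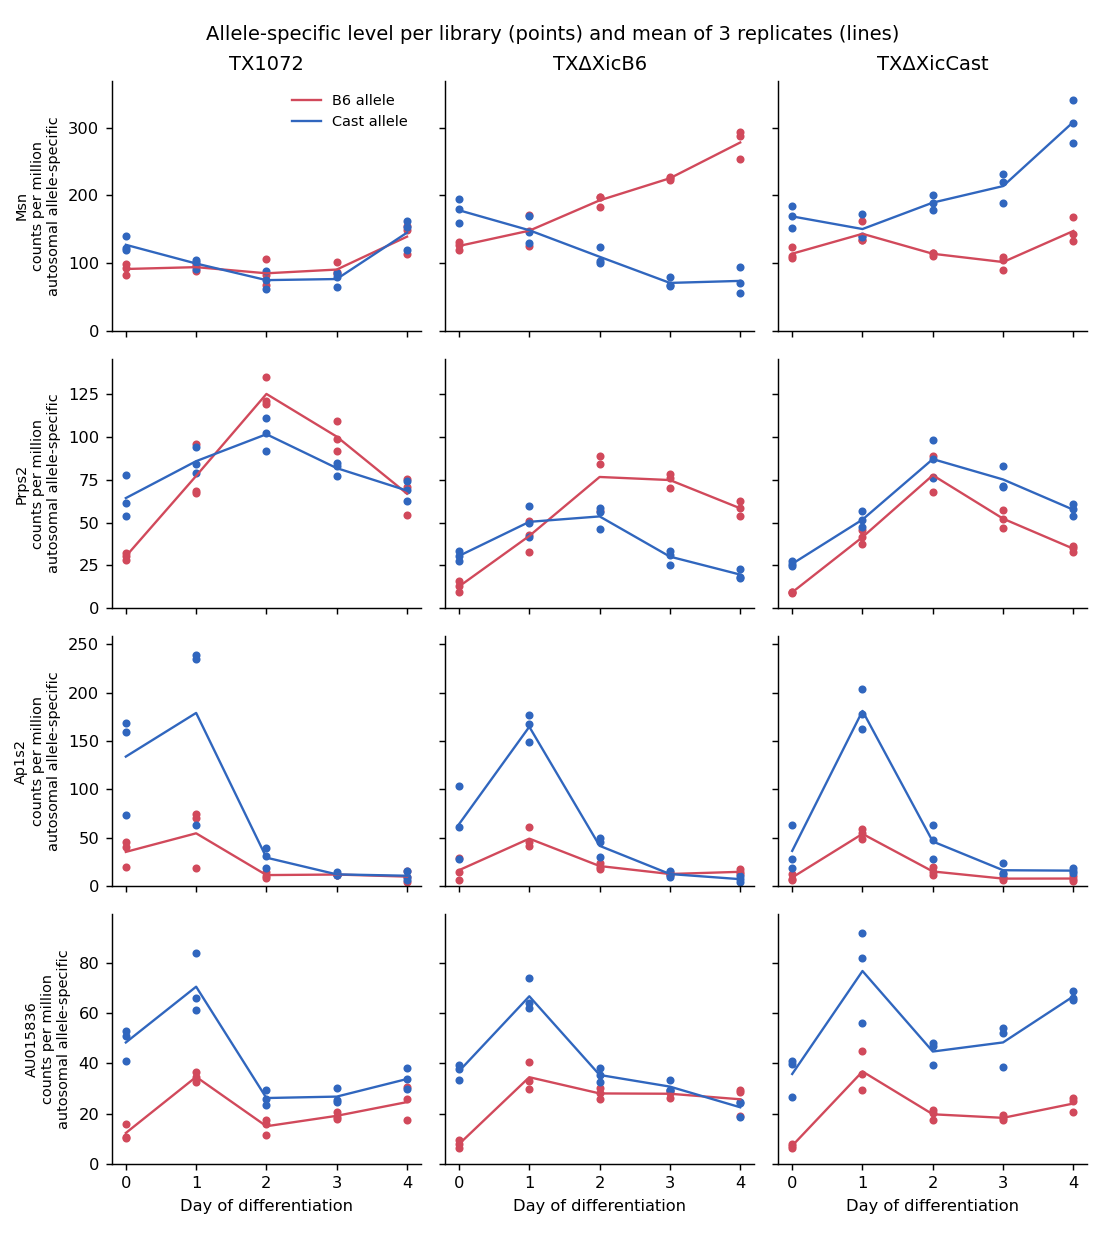
Level of the B6 and the Cast allele (y axis, allele-specific CPM) against the day of differentiation (x axis), with 1 row per gene and 1 column per line, points for libraries and lines for the mean of 3 replicates. In TXΔXicB6 the Cast allele of Ap1s2 ends at 11.2% of its day 0 level, while in TXΔXicCast the B6 allele of Prps2 ends at 371% of its own.

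The day on which the lines parted was the same for all 4 genes. At day 0 and on day 1 the log2 Cast:B6 ratios of TXΔXicB6 and TXΔXicCast overlapped for each of them, with a gap on day 1 of 0.06 (SE 0.02) for Msn, 0.05 (SE 0.09) for Prps2, −0.02 (SE 0.11) for Ap1s2 and 0.09 (SE 0.10) for AU015836. From day 2 on the 3 libraries of TXΔXicCast lay above the 3 of TXΔXicB6 for every gene and day. The comparison genes Pir and Hprt also parted on day 2, and Klhl13 on day 3, so day 2 was not particular to the members. The gap on day 2 was 1.56 (SE 0.10) for Msn, 0.66 (SE 0.10) for Prps2, 0.58 (SE 0.19) for Ap1s2 and 0.84 (SE 0.12) for AU015836, and it was widest on day 4, with 2.29 (SE 0.08) for Prps2 and 2.15 (SE 0.39) for Ap1s2. The medians of the 298 X-linked genes were 0.07, 0.78, 1.42 and 1.89 at days 1 to 4. Counted from the lowest, the gaps of day 4 ranked 270 for Msn, 204 for Prps2, 185 for Ap1s2 and 112 for AU015836 among 298 genes, so only that of Msn lay near the upper end. The lines did not overlap on day 4 in 4 of 4 members and in 98.7% of the X-linked genes.

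Whether these genes look silenced on Cast alone depended on what day 4 was compared with. Against day 0 of the same line, log2 Xi:Xa fell by over 1 in TXΔXicB6 and not in TXΔXicCast for 4 of 4 members, and for 48.3% of the 298 X-linked genes, and the members were chosen on this contrast. From the lowest, their Xi:Xa changes ranked 10, 4, 3 and 15 in TXΔXicB6 for Msn, Prps2, Ap1s2 and AU015836, where the median was −1.21. In TXΔXicCast they ranked 188, 294, 296 and 295 in the same order, where the median was −0.66. Xi:Xa rose against day 0 in TXΔXicCast for Prps2, Ap1s2 and AU015836 and for 24 of the 298 genes. Set against TX1072 of the same day, the picture was more even. With this reference, chosen after the data were seen, log2 Xi:Xa in TXΔXicB6 was −2.01 for Msn, −1.62 for Prps2, −1.30 for Ap1s2 and −0.66 for AU015836. In TXΔXicCast it was −1.01, −0.67, −0.85 and −0.99, where the X-linked medians were −1.25 and −0.67. In the means the B6 allele was thus also lower relative to Cast in TXΔXicCast than in TX1072 in all 4 members, with SEs of 0.04, 0.08, 0.31 and 0.17. The libraries of TXΔXicCast and TX1072 overlapped for Ap1s2, and for Prps2 the lines already differed by 0.39 (SE 0.16) on day 0 in the same direction. Both values lay below −0.5 for 193 of the 298 X-linked genes. TX1072 cells inactivate either X themselves and were prepared with another kit and sequenced with shorter reads, and the part of this in these values was not tested. Ratios could differ from TX1072 before inactivation. For Eif2s3x, a neighbour of AU015836, log2 Cast:B6 on day 0 was 5.56 in TX1072 and differed by −4.28 in TXΔXicB6 and −4.36 in TXΔXicCast. For the members these day 0 differences lay between −0.03 (Ap1s2) and 0.39 (Prps2), both in TXΔXicCast.

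**Figure D3:**
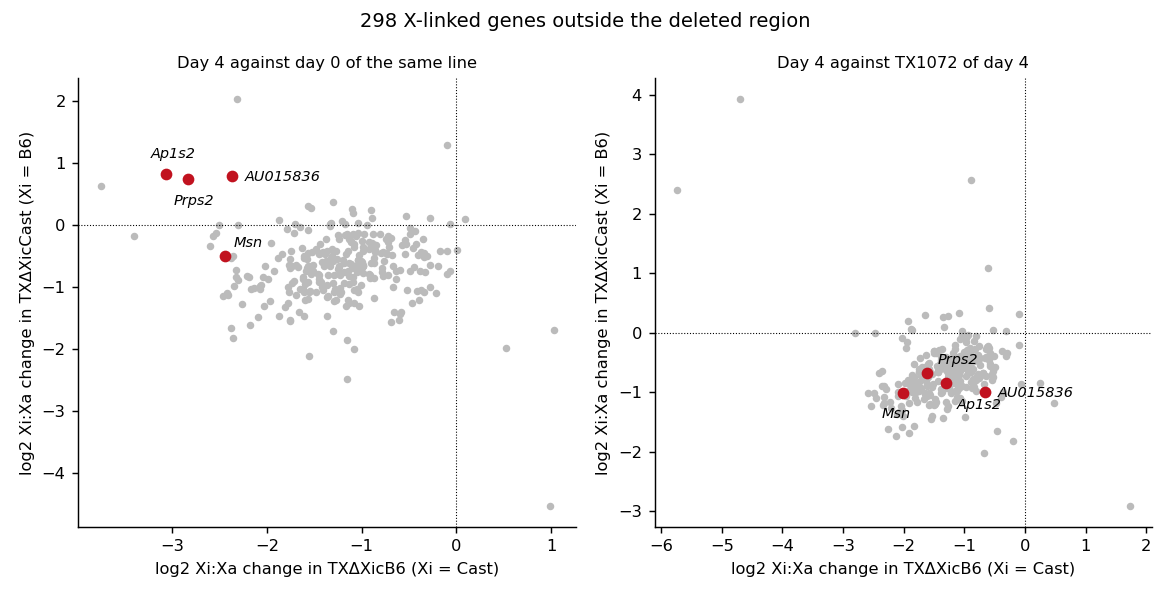
Log2 Xi:Xa change on day 4 in TXΔXicB6 (x axis) against that in TXΔXicCast (y axis) for 298 X-linked genes (grey) and the 4 members (red), relative to day 0 of the same line on the left and to TX1072 of day 4 on the right. On the left Prps2, Ap1s2 and AU015836 lie above 0 on the y axis (0.74, 0.83 and 0.80), and on the right all 4 lie below 0 on both axes, among the other genes.

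In TX1072, where either X may be inactivated, the ratio also moved. The Cast share of Msn went from 60.0, 56.2 and 58.4% on day 0 to 51.1, 51.7 and 51.3% on day 1, 47.7, 47.9 and 45.5% on day 2, 47.9, 45.7 and 43.5% on day 3 and 51.2, 49.8 and 52.1% on day 4. For Prps2 it was 49.6, 53.6 and 55.5% on day 1, 43.2, 45.1 and 46.1% on day 2, 48.0, 43.9 and 43.2% on day 3 and 49.8, 53.6 and 49.2% on day 4. Both genes thus ended near parity, with no library of days 1 to 4 inside the range of day 0. For Ap1s2 the share was 76.9, 77.1 and 76.2% on day 1, 73.9, 67.8 and 72.9% on day 2, 49.2, 46.3 and 55.1% on day 3 and 50.0, 60.6 and 50.5% on day 4. For AU015836 it was 66.9, 64.1 and 69.6% on day 1, 62.1, 67.0 and 62.5% on day 2, 61.5, 58.7 and 54.6% on day 3 and 63.0, 56.6 and 55.5% on day 4. In all 4 genes the 3 libraries of day 1 lay below the 3 of day 0, by the least in Ap1s2.

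In the edgeR fit of TX1072 (quasi-likelihood test, Benjamini-Hochberg adjusted), log2 Cast:B6 of AU015836 changed from day 0 by −1.02 (SE 0.15, adjusted p = 6.02e-07) on day 1 and by −1.58 (SE 0.17, adjusted p = 1.51e-11) on day 4. Prps2 changed by −0.96 (SE 0.12, adjusted p = 2.05e-09) on day 1, was lowest on day 2 with −1.41 (SE 0.11, adjusted p = 7.63e-16), and stood at −1.08 (SE 0.12, adjusted p = 1.05e-10) on day 4. Both were called on each of the 4 days. Msn changed by −0.40 (SE 0.08, adjusted p = 2.83e-04) on day 1, −0.67 (SE 0.09, adjusted p = 1.72e-08) on day 2, −0.73 (SE 0.09, adjusted p = 3.55e-09) on day 3 and −0.42 (SE 0.08, adjusted p = 5.49e-05) on day 4. Ap1s2 did not pass the test on day 1, with −0.21 (SE 0.10, adjusted p = 0.204) and an unadjusted p of 0.0407, and then fell by day 2 with −0.57 (SE 0.15, adjusted p = 0.00352), day 3 with −1.87 (SE 0.18, adjusted p = 5.93e-13) and day 4 with −1.80 (SE 0.17, adjusted p = 1.09e-12). Its day 2 call was lost without replicate 2, where the change was −0.48 (adjusted p = 0.0514). Cast:B6 was therefore lower than on day 0 for 3 of 4 members on day 1, where 5.83% of all genes tested were lower. It was lower for 4 of 4 members on day 2, day 3 and day 4, where 7.59%, 6.82% and 7.25% of all genes were. The day 0 libraries enter the Cast excess on day 0 and each of these changes alike: of the 2505 genes higher on Cast on day 0, 29.2% were lower on day 4, among them 20 of 96 X-linked genes (20.8%), and the members' count is to be read beside that share. Among 298 X-linked genes, ordered by the TX1072 change on day 4 from the lowest, Ap1s2 ranked 2, AU015836 3, Prps2 8 and Msn 39, and the median change was 0.00.

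The changes of day 1, before the deletion lines separated, had the same sign in all 3 lines. They are given here as differences between the means of the library ratios, so that the lines are on the same scale. AU015836 changed in log2 Cast:B6 by −0.97 in TX1072, −1.24 in TXΔXicB6 and −1.22 in TXΔXicCast. Prps2 changed by −0.90, −1.0 and −1.14, and Msn by −0.40, −0.49 and −0.50. Ap1s2 changed by −0.19, −0.22 and −0.14. In Msn, Prps2 and AU015836 the Cast share thus fell in the bulk RNA of each line by day 1, and the part of Xist in this fall was not tested. The X-linked medians on day 1 were −0.01, −0.01 and −0.03. In TXΔXicCast the mean share of these genes was higher on day 4 than on day 1, and for Msn also higher than on day 0. With day 1 as the starting point, log2 Xi:Xa on day 4 in TXΔXicCast was −1.0 for Msn, −0.41 for Prps2 and −0.43 for AU015836, below 0, and 0.68 for Ap1s2, above 0.

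Total expression, from the TX1072 count tables without regard to allele and given in CPM (counts scaled to the library size), differed in course between the 4 genes. Ap1s2 measured 170.2, 115 and 203 CPM on day 0, 263, 119 and 262 on day 1, 37.8, 31.5 and 47.5 on day 2, 22.8, 21.4 and 23.4 on day 3 and 20.4, 15.1 and 25.8 on day 4. All libraries of days 2 to 4 lay below those of days 0 and 1. Its log2 change was −2.06 (SE 0.27, adjusted p = 2.06e-06) on day 2 and −2.99 (SE 0.28, adjusted p = 1.90e-08) on day 4 (edgeR quasi-likelihood, Benjamini-Hochberg over 18871 genes). At day 1 it was 0.40 (SE 0.25, adjusted p = 0.214) and did not pass, but it was called in 3 alternatives. Without replicate 2, the lowest library of both days, it was 0.45 (adjusted p = 0.0243), with the replicate number as a block it was 0.37 (adjusted p = 0.0416), and without the expression filter it was 0.40 (adjusted p = 0.0127). Prps2 measured 86.2, 56.7 and 68.6 CPM on day 0, 163, 170.1 and 178 on day 2 and 115, 86.3 and 111 on day 4. It rose by 1.27 (SE 0.17, adjusted p = 2.80e-06) on day 2 and by 0.56 (SE 0.17, adjusted p = 0.00685) on day 4, where the groups were least apart and the call was lost without replicate 3 (adjusted p = 0.084).

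Msn measured 146, 146 and 161 CPM on day 0, 106, 87.7 and 120.3 on day 2 and 164, 215 and 205 on day 4. It fell on day 2 with −0.53 (SE 0.14, adjusted p = 0.00332) and rose on day 4 with 0.37 (SE 0.14, adjusted p = 0.0277), and the day 4 call was lost when any 1 replicate was left out (adjusted p = 0.0516 to 0.118). The day 3 value of −0.40 (SE 0.14, adjusted p = 0.0196) lost its call without replicate 1 or without replicate 3 (adjusted p = 0.0833 and 0.299). AU015836 measured 45.6, 41.4 and 42.2 CPM on day 0, 76.1, 80.5 and 90.1 on day 1, 33.0, 29.2 and 31.7 on day 2 and 33.4, 48.1 and 52.2 on day 4. It peaked on day 1, by 0.93 (SE 0.13, adjusted p = 1.25e-05), lay below day 0 on day 2, by −0.46 (SE 0.13, adjusted p = 0.00694), and on day 4 did not pass the test, with 0.05 (SE 0.13, adjusted p = 0.776). Of the 4 members, 2 rose and 0 fell on day 1, where 25.3% of all genes rose and 21.2% fell. At day 2, 1 rose and 3 fell (29% and 26.7% of all genes), on day 3, 1 rose and 2 fell (28.2% and 27.2%), and on day 4, 2 rose and 1 fell (30.2% and 29%). The members thus had no common course in total level. In the deletion lines Ap1s2 also ended low, at 20.2% of day 0 in TXΔXicB6 and 29.3% in TXΔXicCast, against 12.6% in TX1072, and Prps2 was again highest on day 2.

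**Figure D4:**
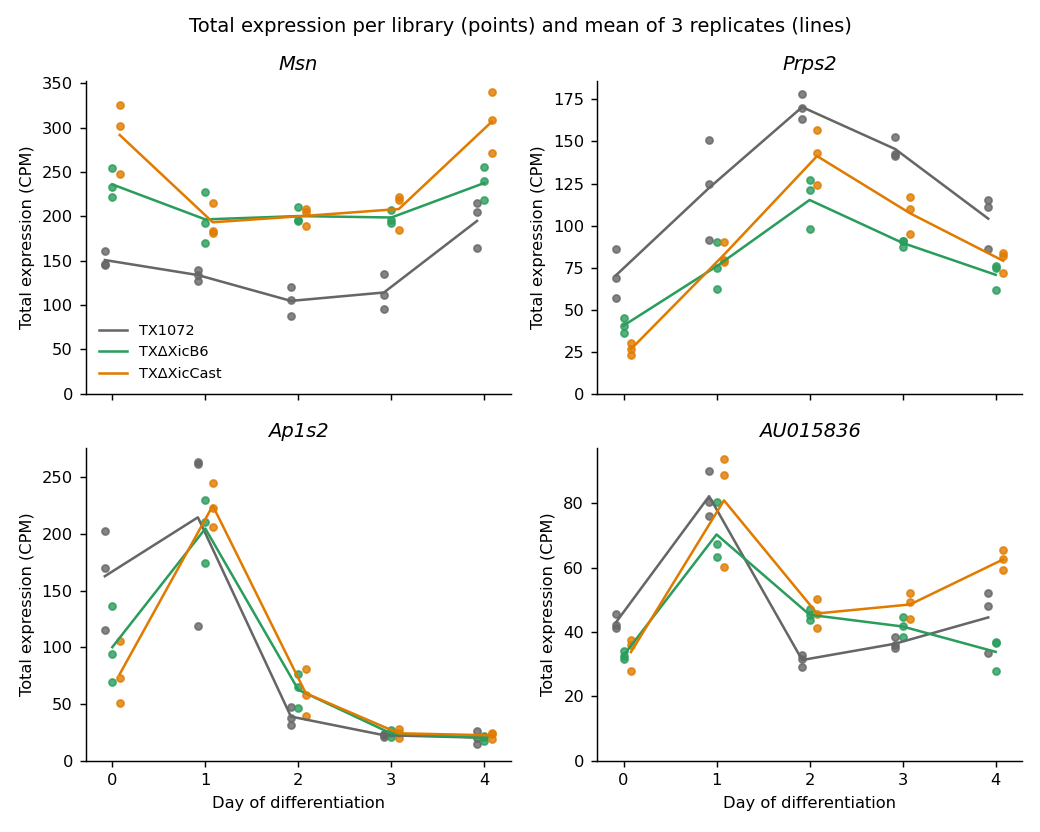
Total expression (y axis, CPM) of the 4 genes against the day of differentiation (x axis) in the 3 lines, with points for libraries and lines for the mean of 3 replicates. Ap1s2 falls after day 1 in all lines, to 12.6% of day 0 in TX1072 on day 4, while Prps2 is highest on day 2.

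The genes that work with the members were read from lists and did not move as blocks in TX1072. Of 12 ezrin-radixin-moesin proteins and partners, 5 rose and 5 fell on day 4, and their median log2 change was −0.01 beside −0.03 over all genes. The scaffold Slc9a3r1 changed by 1.73 and its relative Slc9a3r2 by −1.69, the moesin-bound receptor Cd44 by 3.08 from a low level, and Ezr (ezrin) by −0.39. Of 13 tested genes of phosphoribosyl pyrophosphate and nucleotide synthesis, 0 rose and 5 fell on day 4, with a median of −0.20, and Prps1l1 was too low to test. Among them Prps1, the X-linked sister enzyme of Prps2, changed by −2.72 and the salvage enzyme Hprt by −0.70, so Prps1 was lower on day 4 while Prps2 was higher. Of 12 AP-1 subunits and partners, 4 rose and 2 fell on day 4, with a median of 0.11. The other sigma subunits changed by −0.64 (Ap1s1) and 2.26 (Ap1s3), and the epithelial mu subunit Ap1m2 changed by 7.40, from 0.542 to 96.9 CPM. All log2 changes of genes named here passed the edgeR test (adjusted p at or under 0.05), and 30.2% of all genes rose and 29% fell on that day.

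All 6 naive markers were lower at each of days 1 to 4 in TX1072, among them Nanog, which went from 1065 to 221 CPM on day 4, and their summed level went from 4619 to 406 CPM, from 5977 to 451 CPM in TXΔXicB6 and from 5195 to 439 CPM in TXΔXicCast. Both core pluripotency factors were lower on day 4, and all 5 formative markers were higher on each day. From day 0 to day 4 the core factors went from 1403 to 602 CPM in TX1072, 1458 to 781 CPM in TXΔXicB6 and 2196 to 568 CPM in TXΔXicCast. The formative markers went from 275 to 919, 274 to 1495.1 and 372 to 999 CPM, with the highest sum of day 4 in TXΔXicB6, and these differences between lines were not tested. Of the markers of other cells, 5 of 5 for primitive endoderm were higher on day 4, summing to 4.65 CPM on day 0 and 30.1 CPM on day 4, mostly Dab2 at 25.2 CPM. Of 4 trophoblast markers 3 could be tested, of which 2 were higher and 1 lower, with a sum of 13.5 and 92.2 CPM, mostly Eomes at 88.2 CPM, which early germ layer cells also use. Hand1 was at 0 counts on day 0 and at 1.46 CPM on day 4, and Elf5 stayed below 1 CPM. Of 5 fibroblast markers 2 were higher and 2 lower, with a sum of 81.6 and 146 CPM, mostly Vim at 133 CPM, and Col3a1 was at 0 counts on day 0. At day 4 the endoderm markers summed to 30.5 CPM in TXΔXicB6 and 47.2 CPM in TXΔXicCast, the trophoblast markers to 76.2 and 63.5 CPM, and the fibroblast markers to 87.4 and 125 CPM. The part of these cells in the values of Msn, Prps2, Ap1s2 and AU015836 was not tested.

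Single cells of TX1072 gave the allelic share of each gene after sorting cells by their own Xist allele. In these C1 libraries, which count unique molecular identifiers (UMIs) at the 3′ end, 1472 of 2000 capture sites were retained, with 43060 to 300322 UMIs per cell. Cells were called Xist-MA (monoallelic) when they held more than 5 allele-specific Xist UMIs, all from the same allele, which left 79 cells with Xist from B6, 43 with Xist from Cast and 46 without Xist UMIs on day 4. There is 1 culture per day, so shares carry an exact binomial interval for counting error only and no test, and UMIs of 1 gene come from few cells. At day 0, in 260 cells without Xist UMIs, the Cast share was 50.8% (95% interval 46.3 to 55.3%) for Msn, 65.4% (95% interval 60.1 to 70.4%) for Prps2, 85.3% (95% interval 80.8 to 89.1%) for Ap1s2 and 73.7% (95% interval 68.5 to 78.4%) for AU015836. Over all X-linked genes it was 49.3%, so the Cast excess of Prps2, Ap1s2 and AU015836 was also present in these libraries, and that of Msn lay within counting error of parity. The paper states that the bulk RNA of TX1072 replicate 1 was taken from the population that gave the single cells. The single cells are thus not a culture separate from that replicate.

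At day 4 the share followed the Xist allele for Msn, Prps2 and Ap1s2. In cells with Xist from Cast the Cast share of Msn was 5.69% (95% interval 2.32 to 11.4%), from 123 allele-specific UMIs in 23 cells, and in cells with Xist from B6 it was 78.0% (95% interval 70.9 to 84.1%), from 164 allele-specific UMIs in 56 cells. For Prps2 it was 12.4% (95% interval 6.33 to 21.0%) with Xist from Cast and 71.6% (95% interval 64.8 to 77.6%) with Xist from B6, from 89 allele-specific UMIs in 24 cells and 204 allele-specific UMIs in 33 cells. In the sum of X-linked genes the shares were 13.1% and 74.5%, which the intervals of Prps2 include in both classes and that of Msn includes with Xist from B6, while with Xist from Cast the share of Msn lay below that of the chromosome. For Ap1s2, 0 of 22 UMIs were Cast with Xist from Cast, in 5 cells, which allows a share of up to 15.4% (exact binomial). With Xist from B6 the Cast share of Ap1s2 was 97.7% (95% interval 87.7 to 99.9%), from 43 allele-specific UMIs in 8 cells. Few UMIs of Ap1s2 were thus from B6 where Xist came from B6, though 12 of 12 UMIs in 3 cells without Xist UMIs were Cast as well. For AU015836 the classes came closer, at 33.3% (95% interval 19.6 to 49.5%) and 66.7% (95% interval 50.5 to 80.4%), from 42 allele-specific UMIs in 9 cells and 42 allele-specific UMIs in 10 cells, and cells without Xist UMIs stood at 64.2% (95% interval 53.7 to 73.8%). The total level of AU015836 also differed between the classes. At day 4 its total was 9.99 CPM with Xist from B6, 14.1 CPM with Xist from Cast and 34.9 CPM without Xist UMIs, and it held 14 B6 UMIs in 79 cells with Xist from B6 against 34 in 46 cells without Xist UMIs. The totals on day 3 were 6.82, 11.7 and 60.9 CPM in the same order, and on day 2 they were 1.33, 0.673 and 68.0 CPM. AU015836 was thus lower in both Xist-MA classes than in cells without Xist UMIs on each of these days, in 1 culture a day. At day 4 this also held for Msn, with 133, 125 and 259 CPM in the same order. It held too for Prps2, with 74.8, 73.6 and 112 CPM, and for the sum of X-linked genes, with 40976, 37874 and 57649 CPM. It did not hold for Ap1s2 on day 4, with 13.97, 27.9 and 13.8 CPM, where neither Xist-MA class was lower. Nor did it hold for Prps2 on day 2, with 134.8, 115.7 and 100.5 CPM. On day 3 Prps2 stood at 88.2, 99.9 and 96.4 CPM, lower only with Xist from B6.

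In cells with Xist from Cast the Cast share of Prps2 came to 19 of 20 UMIs on day 1 (90% of the 20 came from 1 cell), 48.1% (95% interval 28.7 to 68.1%) on day 2 and 12.5% (95% interval 6.16 to 21.8%) on day 3. With Xist from B6 it was 40.0% (95% interval 29.8 to 50.9%), 50.5% (95% interval 43.6 to 57.4%) and 61.5% (95% interval 52.7 to 69.7%) on the same days, so the intervals of the classes were apart with Cast lower in the Xist-Cast class from day 3. For Msn they were apart in that direction on day 3, at 15.5% (95% interval 7.35 to 27.4%) and 75.3% (95% interval 64.5 to 84.2%), and overlapped on day 2. Ap1s2 and AU015836 had at most 21 allele-specific UMIs per Xist-MA class on day 2 and at most 23 on day 3. AU015836 on day 3 was at 100.0% (95% interval 85.2 to 100.0%) with Xist from B6 and at 18.2% (95% interval 2.28 to 51.8%) with Xist from Cast, in 4 and 3 cells. In 70 cells without Xist UMIs on day 1, the Cast share was 36.0% (95% interval 22.9 to 50.8%) for Msn and 48.5% (95% interval 38.4 to 58.7%) for Prps2. It was 59.7% (95% interval 47.9 to 70.8%) for Ap1s2 and 73.7% (95% interval 62.3 to 83.1%) for AU015836. For AU015836 that was the same share as on day 0.

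**Figure D5:**
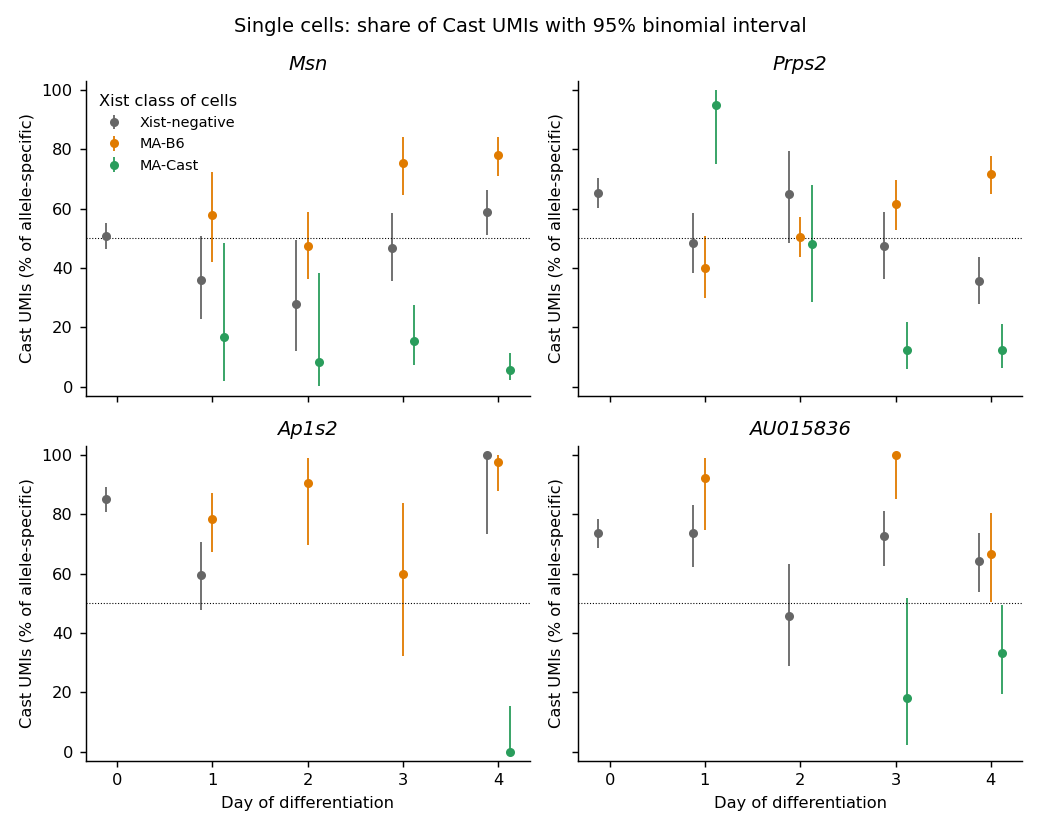
Share of Cast among allele-specific UMIs (y axis, %) of the 4 genes against the day (x axis) in single TX1072 cells without Xist UMIs, with Xist from B6 (MA-B6) and with Xist from Cast (MA-Cast), with 95% exact binomial intervals for classes with at least 10 allele-specific UMIs and, on day 0, for cells without Xist UMIs only. At day 4 the classes lie apart for Msn, Prps2 and Ap1s2 (for Msn at 5.69% and 78.0%), and just apart for AU015836.

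Of the 16 nearest measured genes on the chromosome, 4 around each member, log2 Xi:Xa on day 4 was below day 0 by over 1 in TXΔXicB6 and not in TXΔXicCast for 6, namely Las1l, Msl3, Ctps2, Siah1b, Pcyt1b and Zfx. It was lower than on day 0 in both deletion lines for 14 of the 16, as it was for Msn but not for the other members. Among the 298 X-linked genes, 48.3% met the first rule, and Xi:Xa rose in only 5 in TXΔXicB6 and 24 in TXΔXicCast. A fall in both lines was thus common over the chromosome and not particular to these neighbours. Zrsr2, which lies 1.78 kb from Ap1s2 and encodes a splicing factor, changed by −0.76 in TXΔXicB6 and −0.58 in TXΔXicCast, where Ap1s2 changed by −3.07 and 0.83. Siah1b, 137 kb from Ap1s2, changed by −1.34 and 0.01, and Ctps2, on its other side, by −1.72 and −0.13. Around Prps2, Tmsb4x (thymosin beta 4) changed by −1.16 in TXΔXicB6 and −2.48 in TXΔXicCast, although its Cast:B6 ratio rose by 2.28 in TX1072 too. Against TX1072 of day 4 its log2 Cast:B6 ratio differed by −2.48 in TXΔXicB6 and by 0.0077 in TXΔXicCast, so with that reference the fall lay on the Cast allele. The exceptions to the 14 of 16 were Siah1b, at 0.01 in TXΔXicCast, and Gm15226, at 1.67 in TXΔXicB6. Gm15226 had only 5 allele-specific counts in its lowest group. Next to AU015836, Pdk3 changed by −1.60 and −1.21 and Zfx by −1.18 and −0.61, and next to Msn, Las1l changed by −1.35 and −0.62. By the root mean square difference of the mean log2 Cast:B6 ratio over the 10 groups of the deletion lines, Msn was closest among 297 other genes to Mageh1 (0.16), Gpc3 (0.23) and Acsl4 (0.25), and Prps2 to Acsl4 (0.36), Map3k15 (0.39) and Piga (0.41). Ap1s2 was closest to Rhox6 (0.52) and AU015836 (0.55), and AU015836 to Rhox6 (0.43) and Stard8 (0.49).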

How the data were processed

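The 45 bulk libraries and the single cells were those described above. The deposited files hold raw counts, which the authors made by aligning reads with STAR (2.5.2b) to mm10 with B6/Cast SNPs masked, splitting them by allele with SNPsplit and counting them per gene with featureCounts. The single-cell counts are UMI counts that the authors deposited per capture site and allele. Reads that aligned to 1 place with few mismatches were kept.

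Genes and lists were chosen with earlier results of these data known. The named genes were the 4 members, Xist, 3 comparison genes, the 2 nearest measured neighbours on each side and the 3 genes with the most similar allelic ratio. TX1072 counts were tested with edgeR 4.0.16 in R 4.3.3 (quasi-likelihood, two-sided, Benjamini-Hochberg, called at an adjusted p of 0.05), in 1 fit over 15 libraries with day as a factor. Totals were filtered with filterByExpr and normalised with TMM on autosomal genes, and allelic ratios were fitted with a term per library, allele and allele by day. The fits were tested on simulated data first. Ratios per library had 1 added to each count. Allele levels and CPM were scaled with TMM factors, and no gene length was used, so levels are not compared between genes. Depth limits Ap1s2 most, since its day 4 counts are low. Replicates of TX1072 were differentiated on different days, so their numbers pair the samples. Deviations from day means correlated at a median of 0.13 between libraries of the same number (17 of 30 pairs over 0.1) and −0.07 between others (1 of 60), and for allelic ratios at 0.03 and −0.01. Whether each replicate of the deletion lines came from a separate culture rests on the same statement.

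Alternatives were DESeq2 1.42.0, other size factors, no expression filter, separate library sizes for each allele, X-linked genes alone, a replicate block, each replicate left out, other pseudocounts, scalings, starting days and Xist classes, and, chosen after seeing the data, TX1072 of the same day as reference, the omission of single libraries for allele levels, and the omission of the 4 libraries with a low allele-specific share.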

Additional observations from a re-analysis of the deposited data

Results flagged for a closer look

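For the same contrast, the change of log2 Xi:Xa from day 0, taken against the day 0 mean of the line, every library of TXΔXicB6 lay on one side of 0 and every library of TXΔXicCast on the other. These cases were picked up for that reason alone, the difference between the lines was not tested, and in each of them the mean log2 Cast:B6 ratio was below that of day 0 in both lines. Xi:Xa is Cast over B6 in TXΔXicB6 and B6 over Cast in TXΔXicCast. A fall of Cast:B6 shared by both lines therefore gives opposite signs by definition, and the values below include such shared falls. The members were also chosen on this contrast. The change in TXΔXicB6 minus that in TXΔXicCast was −0.99 for Msn on day 1. For Prps2 it was −2.14 on day 1, −3.05 on day 2, −3.51 on day 3 and −3.57 on day 4. For Ap1s2 it was −0.36 on day 1, −1.33 on day 2, −2.86 on day 3 and −3.90 on day 4, although the day 0 libraries of TXΔXicCast scattered as described. Against its own day 0 library, the Cast share of Ap1s2 in replicate 1 of TXΔXicCast was higher on days 1 and 2 (71.0% on day 0 and 76.4% on both later days), so the direction of those days rests on the day 0 mean. For AU015836 it was −2.46 on day 1, −2.96 on day 2, −2.95 on day 3 and −3.17 on day 4, so most of the difference was there on day 1, when the Cast:B6 ratios of the lines still overlapped.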

How the results depend on the processing

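For the tested changes of the allelic ratio in TX1072, the members kept their direction in every alternative run, and the only call that was lost was that of Ap1s2 on day 2 without replicate 2. The number of genes called over the genome moved more. DESeq2 called 925 genes on day 1, 1315 on day 2 and 1344 on day 4, where edgeR called 1545, 2003 and 2020. A fit of X-linked genes alone, which tests fewer genes, called 186 on day 0 and 31, 52, 42 and 50 at days 1 to 4. The fit of all genes, which called 5956 on day 0, called 188 of the X-linked genes on day 0 and 33, 54, 50 and 52 at days 1 to 4, so the lower counts come from the genes tested. With the replicate number as a block, 2168 allelic changes and 11703 changes in total level were called on day 4, against 2020 and 11181, and apart from Ap1s2 in total level on day 1 the block changed no call of a member. The total level of AU015836 on day 4 was not called and changed sign when replicates were left out, from −0.081 without replicate 3 and −0.040 without replicate 2 to 0.26 without replicate 1. In the deletion lines, with TX1072 of the same day as reference, Prps2 and Ap1s2 had Xi:Xa lower by over 1 in TXΔXicB6 only, where all 4 members and 48.3% of the 298 X-linked genes had against day 0. With the TX1072 reference the X-linked medians were −1.25 in TXΔXicB6 and −0.67 in TXΔXicCast. The share of X-linked genes that met the rule with that reference is not given here, so it is not read as a trait of these members. Centred on the X-wide median of each library, log2 Xi:Xa on day 4 in TXΔXicCast was 0.13 for Msn and 1.37 for Prps2. Scaled to the whole library, the Cast allele of Prps2 in TXΔXicB6 changed by −0.06 from day 0 to day 4 on the log2 scale. The causes of these shifts were not tested. The members' Xi:Xa on day 4 kept their direction without the 4 libraries of low allele-specific share. Values rest on 1 clone per deletion, on RNA of day 0 that was degraded in TXΔXicCast, and on few cells per gene and class in the single-cell data.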

Other observations

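Of the 3 comparison genes, Klhl13 moved in the deletion lines in the opposite sense to Prps2, Ap1s2 and AU015836. In TXΔXicB6 it also moved opposite to Msn, while in TXΔXicCast both fell. Klhl13, an adaptor of a ubiquitin ligase, changed against day 0 by 1.02 in log2 Xi:Xa on day 4 in TXΔXicB6 and by −1.69 in TXΔXicCast, the mirror image of Prps2, and its Cast:B6 ratio rose by 1.35 in TX1072. Pir changed by −1.33 and −0.02 and Hprt by −1.73 and −0.67, in the same order of lines, so that both were lower by over 1 in TXΔXicB6 and not in TXΔXicCast, as the members were. The gap between the lines on day 4 was 0.28 for Klhl13, 1.35 for Pir and 2.22 for Hprt, where the X-linked median was 1.89. These values are descriptions without a test.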
